A study of Mus musculus with 3 samples.

Results

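TRAV6 is the largest family of variable genes used by the T cell receptor alpha chain (TRA) in the sciatic nerve T cells studied here. Its members were taken as every productive TRA contig of a called cell whose variable (V) gene name was TRAV6, TRAV6D or TRAV6N followed by a copy number. This gave 11 gene names of the 68 TRAV names in the files, 840 of 5269 cells with a TRA, and 519 of 3325 TRA rearrangements. A rearrangement joins a V gene to a joining (J) gene through one nucleotide CDR3, and each was counted once per library whatever its number of cells. The cells were CD45+ cells sorted by flow cytometry from sciatic nerves of neuropathic NOD.AireGW/+ mice, and single-cell receptor libraries were sequenced (scTCR-Seq). These are female non-obese diabetic mice that carry 1 mutant copy of Aire, the regulator that lets thymic cells display tissue proteins, and they develop autoimmune neuropathy spontaneously. There was 1 condition with 3 libraries from 4 mice: replicates 1 and 2 were 1 mouse each, and replicate 3 pooled 2 mice. Their age is not given in the sources used here, and no untreated or healthy library was analysed here.

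The alpha chain is assembled in the thymus by joining 1 TRAV gene to 1 TRAJ gene. The V gene encodes the loops CDR1 and CDR2 and the start of CDR3, and the CDR3, which spans the joint, contacts the peptide held by the MHC molecule. Part of the mouse TRAV locus is duplicated, so that a family has plain copies and copies marked D and N. An early joint of a cell can be replaced by a later one that uses a TRAV gene farther upstream and a TRAJ gene farther downstream. In GRCm38, the reference genome of C57BL/6J, 15 TRAV6 copies lie on the plus strand of chromosome 14 between 52638515 and 53710419, and the TRAJ genes lie at 54155005 to 54218842, numbered downwards towards the constant region. TRAV6-2 lies at 52667411 to 52667864, TRAV6N-7 at 53318798 to 53319284 and TRAV6-6 at 53516929 to 53517366. The copies are alike, so a name given by Cell Ranger can stand for a near-identical copy of the NOD locus.

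The first sequences shown are the CDR1 loops, because they tell most of the more frequent copies apart. They were read from the contigs of replicates 2 and 3, whose files give the V region (framework 1 to framework 3). Capitals mark bases that differ from the TRAV6-2 loop or, for the longer TRAV6-6 loop, between its 2 forms.
TRAV6-2: accacagggtacccgact
TRAV6-1: accacaTggtacccgact
TRAV6-4: accacaACAtacccAact
TRAV6D-4: accacaACgtacccAact
TRAV6-5: accaAaCAgtacccAacC
TRAV6N-7: GccTcagggtacccAGct
TRAV6-6 form a: Accacaagcatagcttaccctaat
TRAV6-6 form b: Gccacaagcatagcttaccctaat

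The CDR1 of TRAV6-6 had 8 codons and those of the other copies had 6. TRAV6-3 and TRAV6D-3 carried the same CDR1 as TRAV6-2, TRAV6D-7 and TRAV6-7-DV9 the same as TRAV6N-7, and both forms of TRAV6-5 the same as each other. Over 556 TRAV6 contigs there were 11 distinct V regions, each seen in more than 1 rearrangement. Of these, 5 were identical to a GRCm38 copy: those of TRAV6-1, TRAV6-2 and TRAV6D-4, the more frequent form of TRAV6-3, and 1 form of TRAV6-5. The TRAV6N-7 region differed by 10 of 267 bases from its nearest GRCm38 copies, and contigs named TRAV6D-7 and TRAV6-7-DV9 carried this same region. For 3 names there were 2 forms. The forms of TRAV6-6 differed by the substitution A79G, counted from the first base of framework 1, which is the first base of CDR1. Form a was found in 54 rearrangements and 74 cells, and form b in 39 rearrangements and 92 cells, and both occurred in both libraries. The forms of TRAV6-5 differed at 7 bases, and those of TRAV6-3 at 1. Whether 2 forms of a name are 2 gene copies was not tested.

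TRAV6 held a like share of the repertoire in each library. It made up 188 of 1231 TRA rearrangements in replicate 1 (15.3%, exact 95% interval 13.3 to 17.4), 271 of 1700 in replicate 2 (15.9%, 14.2 to 17.8) and 60 of 394 in replicate 3 (15.2%, 11.8 to 19.2). The mean was 15.5% ± 0.399 (SD, n = 3 libraries), and the intervals cover counting error only. TRAV6 ranked first of the TRAV families in all 3 libraries. The families nearest to it in share were TRAV7 at 11.2% ± 0.355, TRAV9 at 9.81% ± 0.957 and TRAV5 at 9.69% ± 0.928. By cells, TRAV6 was in 14.5% of cells with a TRA in replicate 1, 17.2% in replicate 2 and 14.3% in replicate 3, with a mean of 15.3% ± 1.64. TRAV6 contigs were a little shallower than others, with medians of 4.0, 3.0 and 2.5 UMIs against 5.0, 4.0 and 3.0 in replicates 1, 2 and 3. With only chains of at least 3 UMIs, the mean share of rearrangements was 14.3% ± 0.611.

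Depth differed between libraries, with 13202, 13491 and 1685 TRA UMIs in replicates 1, 2 and 3. Of the 6634 cell barcodes, 10 occurred in more than 1 library, 4 of them with a TRAV6 contig, and none shared a TRA rearrangement. Of 840 TRAV6 cells, 14, 30 and 8 in replicates 1, 2 and 3 had no beta chain (TRB) contig.

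Among the copy names, TRAV6N-7 was used most and TRAV6-6 next. TRAV6N-7 rearrangements came with 2 different first CDR3 codons, described below with the TRAJ genes, and whether the name covers more than 1 copy was not tested. The larger of the 2 codon groups had 56, 79 and 19 rearrangements in replicates 1, 2 and 3, and TRAV6-6 had 43, 79 and 14. TRAV6N-7 made up 37.2% of TRAV6 rearrangements in replicate 1 (70 of 188), 39.9% in replicate 2 (108 of 271) and 43.3% in replicate 3 (26 of 60). TRAV6-6 made up 22.9%, 29.2% and 23.3% in the same order. The highest TRAV6-6 share was below the lowest TRAV6N-7 share, and the lowest TRAV6-6 share was above that of every remaining copy. TRAV6-5 followed with 44 rearrangements, TRAV6-1 with 35, TRAV6-2 with 27, TRAV6D-4 with 23 and TRAV6-4 with 21. The shares of these 5 copies overlapped over the libraries. TRAV6-3 had 15 rearrangements and TRAV6D-3 had 11, while TRAV6-7-DV9 had 2 and TRAV6D-7 had 1. The share of TRAV6D-4 was 7.98% in replicate 1 (15 of 188, 4.53 to 12.8) and 1.85% in replicate 2 (5 of 271, 0.602 to 4.25), intervals that do not overlap. This is 1 contrast among all copies and libraries and was not tested. Replicate 1 gave no V region to check the name, and 1 CDR3 named TRAV6D-4 there was named TRAV6-5 in replicate 2. Of 517 nucleotide CDR3 and J combinations, 4 carried a second V name, 2 of them within the family, and all 4 were in replicate 2. A combination seen on only 1 contig cannot carry a second name, and most TRAV6 rearrangements were single cells. A copy misnamed the same way each time would not be seen by this count.

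**Figure D1:**
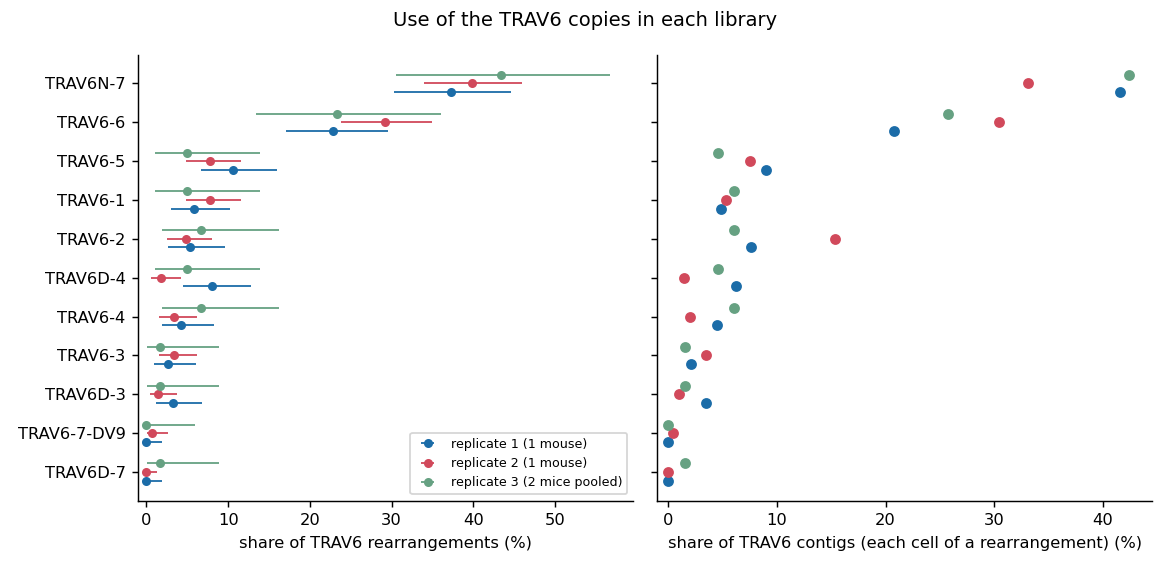
Share of TRAV6 rearrangements (left, with exact 95% intervals) and of TRAV6 contigs, 1 for each cell of a rearrangement (right), held by each copy in the 3 libraries, in percent. TRAV6N-7 and TRAV6-6 lead in both panels, and TRAV6-2 of replicate 2 stands at 15.3% of contigs but 4.8% of rearrangements.

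By contigs, each of which is 1 cell of 1 rearrangement, the order of the copies changed in replicate 2. There TRAV6-2 held 13 rearrangements but 75 cells, which was 15.3% of the 490 TRAV6 contigs, against 7.61% in replicate 1 and 6.06% in replicate 3. In replicate 2, 64 of these 75 cells belonged to 3 rearrangements of more than 5 cells each. With all TRAV6 rearrangements of more than 5 cells left out, the TRAV6-2 share of contigs was 3.46% in replicate 2 and 6.53% in replicate 1.

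The large clones are shown next by their TRA CDR3, from the first cysteine codon to the last residue. Capitals mark bases that match neither the end of a GRCm38 TRAV6 copy nor the TRAJ segment, with TRAJ bases corrected to the majority base of these mice.
TRAV6N-7 and TRAJ43, replicate 1: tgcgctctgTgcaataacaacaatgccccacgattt
TRAV6N-7 and TRAJ53, replicate 1: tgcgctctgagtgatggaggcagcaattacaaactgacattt
TRAV6-2 and TRAJ32, replicate 1: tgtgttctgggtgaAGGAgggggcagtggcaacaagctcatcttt
TRAV6-2 and TRAJ45, replicate 2: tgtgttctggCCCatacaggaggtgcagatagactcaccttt
TRAV6-6 and TRAJ39, replicate 2: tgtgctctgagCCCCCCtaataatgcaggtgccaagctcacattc
TRAV6-2 and TRAJ40, replicate 2: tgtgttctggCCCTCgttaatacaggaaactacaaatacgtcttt

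In replicate 1 the TRAV6N-7 and TRAJ43 rearrangement was in 21 of 1989 cells (1.06%, 0.655 to 1.61), and 20 of these cells carried the same TRBV16 and TRBJ1-1 chain. The TRAV6N-7 and TRAJ53 rearrangement was in 17 cells, 16 of them with 1 TRBV13-1 and TRBJ1-4 chain. All bases of this TRA CDR3 match the end of a GRCm38 TRAV6 copy or the TRAJ segment. The V end it matches is that of TRAV6N-6 and not that of TRAV6N-7. The TRAV6-2 and TRAJ32 rearrangement was in 6 cells, each with the same TRBV13-1 and TRBJ2-2 chain. In replicate 2 the TRAV6-2 and TRAJ45 rearrangement was in 38 of 2819 cells (1.35%, 0.956 to 1.85), and all 38 carried 1 TRBV12-2 and TRBJ2-7 chain. The TRAV6-2 and TRAJ40 rearrangement was in 20 cells, all with 1 TRBV14 and TRBJ2-7 chain. The TRAV6-6 and TRAJ39 rearrangement was less uniform: of its 33 cells, 27 carried the leading TRBV5 and TRBJ2-7 chain, 2 had no TRB, and 3 had a second TRA. Of its 33 contigs with a V region, 32 were of TRAV6-6 form b. None of the 6 sequences was found in another library.

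The beta chains of these clones are printed in the same order, since a clone is the pair. Capitals mark bases that match neither the GRCm38 TRBV end nor the TRBJ segment and so include any D gene.
TRBV16 and TRBJ1-1: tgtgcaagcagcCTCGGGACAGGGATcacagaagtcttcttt
TRBV13-1 and TRBJ1-4: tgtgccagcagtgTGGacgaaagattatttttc
TRBV13-1 and TRBJ2-2: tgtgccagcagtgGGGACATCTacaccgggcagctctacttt
TRBV12-2 and TRBJ2-7: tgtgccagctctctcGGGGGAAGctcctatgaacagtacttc
TRBV5 and TRBJ2-7: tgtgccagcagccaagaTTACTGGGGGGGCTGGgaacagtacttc
TRBV14 and TRBJ2-7: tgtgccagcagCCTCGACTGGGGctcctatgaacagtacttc

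Replicate 3, with 66 TRAV6 cells, had no TRAV6 rearrangement in more than 2 cells. Its 3 leading rearrangements, by UMIs among 6 of equal size, were TRAV6N-7 with TRAJ30, TRAV6-6 with TRAJ27 and TRAV6N-7 with TRAJ34, in 2 cells each. The TRAV6N-7 and TRAJ30 cells shared 1 TRBV19 and TRBJ1-5 chain. The TRAV6-6 and TRAJ27 cells had different TRB chains, and the TRAV6N-7 and TRAJ34 cells had none.

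**Figure D2:**
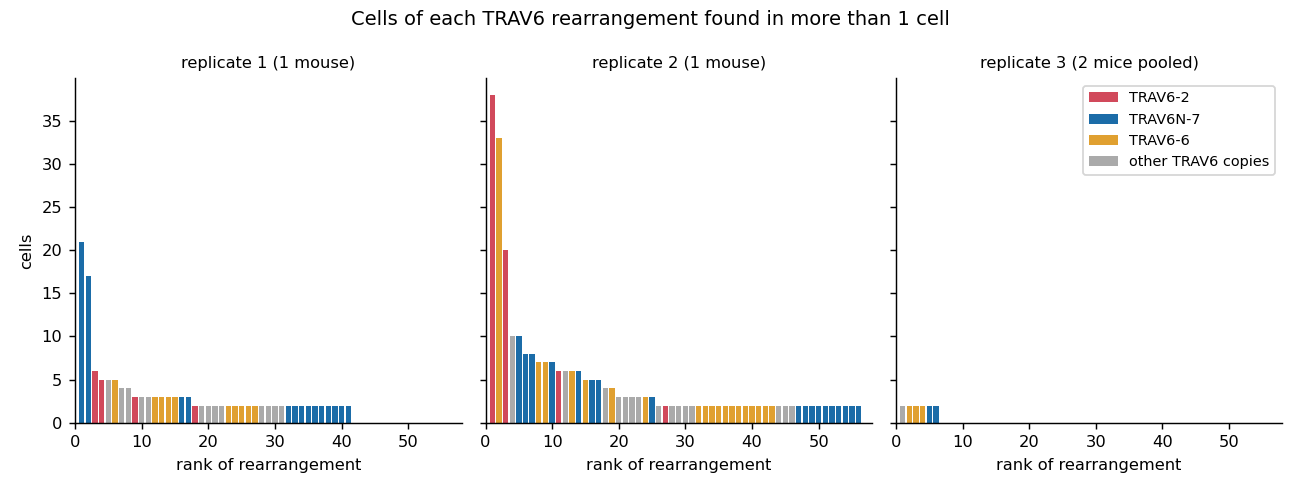
Cells (vertical axis) of each TRAV6 rearrangement found in more than 1 cell, ranked within each library and coloured by copy. Replicate 2 is led by TRAV6-2 (38 cells) and TRAV6-6 (33 cells), replicate 1 by 2 TRAV6N-7 clones (21 and 17 cells), and replicate 3 holds none above 2 cells.

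Most TRAV6 rearrangements were single cells: 147 of 188, 215 of 271 and 54 of 60 in replicates 1, 2 and 3. Rearrangements of more than 5 cells held 15.2% of TRAV6 contigs in replicate 1, where they held 30.5% of the contigs of other TRAV families. In replicate 2 the values were 35.1% and 30.6%, and in replicate 3 0.0% and 5.78%. The order of TRAV6 and the rest thus differed between the libraries.

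Whether rearrangements of a family were seen in more than 1 cell more often than others was asked by a two-sided exact test with library as stratum, over all TRAV genes or families with at least 10 rearrangements. For TRAV6, 103 of 519 rearrangements were in more than 1 cell. The rate over all families of each library, TRAV6 included, would give 113 ± 8.61 (SD under the fixed totals). The ratio was 0.914 (exact test, Benjamini-Hochberg adjusted p = 0.830). Of 17 families tested, 0 were called (0.0%), with 1 family at an unadjusted p under 0.05, which was not TRAV6. Of 55 TRAV genes tested, 0 were called (0.0%), with 2 at an unadjusted p under 0.05, neither of them a TRAV6 copy. TRAV6N-7, the carrier of the largest clones of replicate 1, had 34 such rearrangements against 44.2 expected and was below the expected number in 3 of 3 libraries (ratio 0.770, exact test, adjusted p = 0.577). TRAV6-2 had 8 against 5.78 (ratio 1.38, exact test, adjusted p = 0.896). Its ratio was 2.19 when expansion meant over 2 cells and 4.11 when it meant over 5 cells, neither past the threshold (exact test, adjusted p = 0.556 and 0.428). Over 5 cells, TRAV6-2 had 1 rearrangement in replicate 1, 3 in replicate 2 and 0 in replicate 3. The clone sizes, expansion ratios and p-values of these 2 copies are a description and no test of them, since they were named for carrying large clones. The tests compare rearrangements within these libraries, not mice.

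TRAV6 was joined to all 42 TRAJ genes seen in the libraries. The 5 most frequent were TRAJ23 and TRAJ40 with 29 rearrangements each, TRAJ34 with 28, TRAJ48 with 27 and TRAJ31 with 25. TRAJ34 made up 4.26%, 5.54% and 8.33% of TRAV6 rearrangements in replicates 1, 2 and 3, against 2.11%, 3.99% and 2.99% of those of other families. This was 28 rearrangements against 18.3 expected, a ratio of 1.53 that did not pass the threshold (exact test, p = 0.0188, adjusted p = 0.289). TRAJ48 was higher than in other families in replicates 1 and 3 (7.98% against 3.64%, and 8.33% against 5.69%) and lower in replicate 2 (2.58% against 3.43%). Of the 258 family and TRAJ pairs tested, 1 was called (0.388%), and 0 of the 34 TRAV6 pairs, with 3 of these at an unadjusted p under 0.05. Apart from TRAJ34 these were TRAJ12, with 6 against 13.3, and TRAJ32, with 10 against 17.8.

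The place of the TRAJ gene along the locus varied between copies. The median TRAJ number was 34.0 over all TRAV6 rearrangements and 33.0 over other families. Among copies with at least 10 rearrangements it ran from 16.0 for TRAV6-3 to 39.0 for TRAV6D-3. These copies had only 15 and 11 rearrangements, and their quartiles overlapped, at 10.0 to 34.0 and 19.5 to 46.5. In replicates 2 and 3, TRAV6D-3 carried the same V region as the more frequent form of TRAV6-3. The difference between copies in TRAJ number was not tested. TRAV6N-7 rearrangements fell into 2 groups by the codon of the first cysteine of CDR3, while their V regions in replicates 2 and 3 were identical. The most frequent start of each group is shown with that codon in capitals.
TRAV6N-7 with TGC: TGCgctctgagtgat
TRAV6N-7 with TGT: TGTgctctgagtgat

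The TGC group held 56 of 70, 79 of 108 and 19 of 26 TRAV6N-7 rearrangements in replicates 1, 2 and 3. Its median TRAJ number was 40.0, 42.0 and 39.0 in these libraries, and that of the TGT group was 26.5, 23.0 and 30. The TGC group was thus joined to TRAJ genes nearer to the TRAV genes in 3 of 3 libraries, by 13.8 ± 5.01 TRAJ numbers (SD, n = 3, exact sign-flip permutation p = 0.25, the smallest that 3 libraries allow). In GRCm38, the codon TGC opens the CDR3 of 1 of the 15 copies, TRAV6N-6, and TGT that of the others. That copy differs from TRAV6N-7 at 102 of the V bases compared and from TRAV6-6 at 7. The V region of the TGC contigs in replicates 2 and 3 was nearest to TRAV6D-7 and TRAV6N-7, with a CDR1 of 6 codons. Rearrangements named TRAV6-7-DV9 (2 in replicate 2) and TRAV6D-7 (1 in replicate 3) carried this region and also opened with TGC. Which copy the TGC group stands for was not tested. The comparison of the TGC and TGT groups was chosen after its values were seen. Over cells, the TGC group had 247 cells with a largest clone of 21, and the TGT group had 63 cells with a largest clone of 8. In more than 1 cell were 17.5% of TGC rearrangements (11.9 to 24.5) and 14% of TGT rearrangements (5.82 to 26.7).

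**Figure D3:**
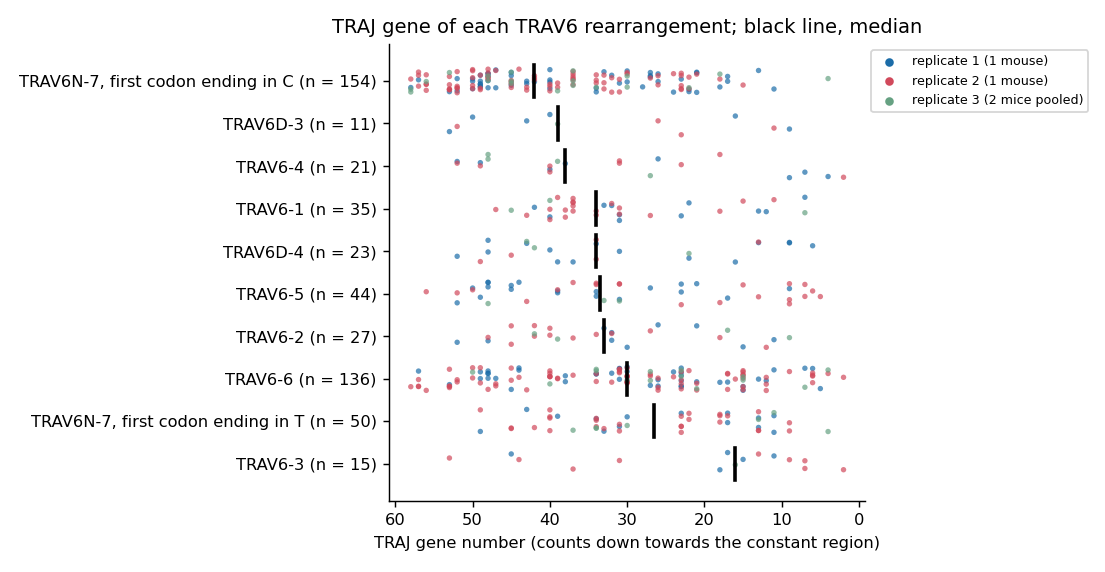
TRAJ number of each TRAV6 rearrangement (points, coloured by library) for copies with at least 10 rearrangements, with TRAV6N-7 split by the last base of its first CDR3 codon. The axis runs along the locus towards the constant region, and black lines give medians, which are 42.0 and 26.5 for the 2 TRAV6N-7 groups.

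The beta chain partner differed from the other families, counted as a pool, at 1 TRBV gene. Over cells with exactly 1 TRA and 1 TRB there were 2582 distinct pairs, 403 of them with TRAV6. TRBV13-3, a gene of the V beta 8 group, was the most frequent partner name over the libraries together with 49 pairs, next to TRBV5 with 48, where TRBV13-2 (22) and the joint name TRBV12-2+TRBV13-2 (35) were kept apart. Within libraries, TRBV5 led in replicate 1 (19 against 16 pairs) and TRBV19 in replicate 3 (9 against 7). Of TRAV6 pairs, TRBV13-3 was in 16 of 150 (10.7%), 26 of 203 (12.8%) and 7 of 50 (14%) in replicates 1, 2 and 3. Other families used it in 5.64%, 7.24% and 7.89% of their pairs. TRAV6 was thus above this pool in 3 of 3 libraries, with 49 pairs against 30.5 ± 4.88 expected (ratio 1.61, exact test, p = 0.000436, adjusted p = 0.0370). Of 170 family and TRBV pairs tested, 3 were called (1.76%), and this was 1 of the 18 with TRAV6. The call was lost when any 1 library was left out, at ratios of 1.58 to 1.63 (exact test, adjusted p = 0.0662 to 0.273), and with chains of at least 3 UMIs (ratio 1.66, adjusted p = 0.0876). It was also lost when pairs with an expected number of at least 2 were tested, at an unchanged ratio (exact test, adjusted p = 0.0525). Families within the pool differed in their use of TRBV13-3. TRAV16 had a higher ratio than TRAV6, at 1.82 (13 pairs against 7.14 expected). It was above in 3 of 3 libraries and was not called (exact test, adjusted p = 0.324). Of the families nearest to TRAV6 in share, TRAV7 had a ratio of 1.25, TRAV9 0.567 and TRAV5 0.448. TRAV9 and TRAV5 were below the expected number in 3 of 3 libraries.

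The 49 pairs came from 48 TRA and 49 TRB rearrangements and 79 cells, and the largest had 9 cells. They spread over 7 of the TRAV6 copies, 25 TRAJ genes and 11 TRBJ genes. TRBV13-3 was in 18 of 150 TRAV6N-7 pairs (12.0%, 7.27 to 18.3), 16 of 111 TRAV6-6 pairs (14.4%, 8.47 to 22.4) and 4 of 32 TRAV6-5 pairs (12.5%, 3.51 to 29.0). It was in 1 of 23 TRAV6-2 pairs (4.35%, 0.110 to 21.9) and in 0 of 12 TRAV6-3 pairs, whose upper bound was 26.5%. The difference between copies was not tested. The TRBJ gene of the TRAV6 and TRBV13-3 pairs was most often TRBJ1-1 (10 of 49, 20.4%, against 8.16% of TRBV13-3 pairs of other families). TRBJ2-7 went the other way (6 of 49, 12.2%, against 19.0%). These TRBJ shares pool the libraries and were not tested.

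The other frequent partners were TRBV5, TRBV19 with 40, TRBV12-2+TRBV13-2, a joint name that does not tell the 2 genes apart, with 35, and TRBV13-1 with 34. Their ratios to the expected number were 1.13, 1.15, 0.820 and 0.964, and none passed the threshold (exact test, adjusted p = 0.757 to 1.0). TRBV2, outside the most frequent partners and named after its values were seen, differed between libraries. It was in 11 TRAV6 pairs against 9.35 expected in replicate 1, 2 against 9.42 in replicate 2 and 0 against 1.74 in replicate 3 (ratio 0.634, exact test, adjusted p = 0.421). Without replicate 1 it was called, at a ratio of 0.179 (exact test, adjusted p = 0.0442).

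**Figure D4:**
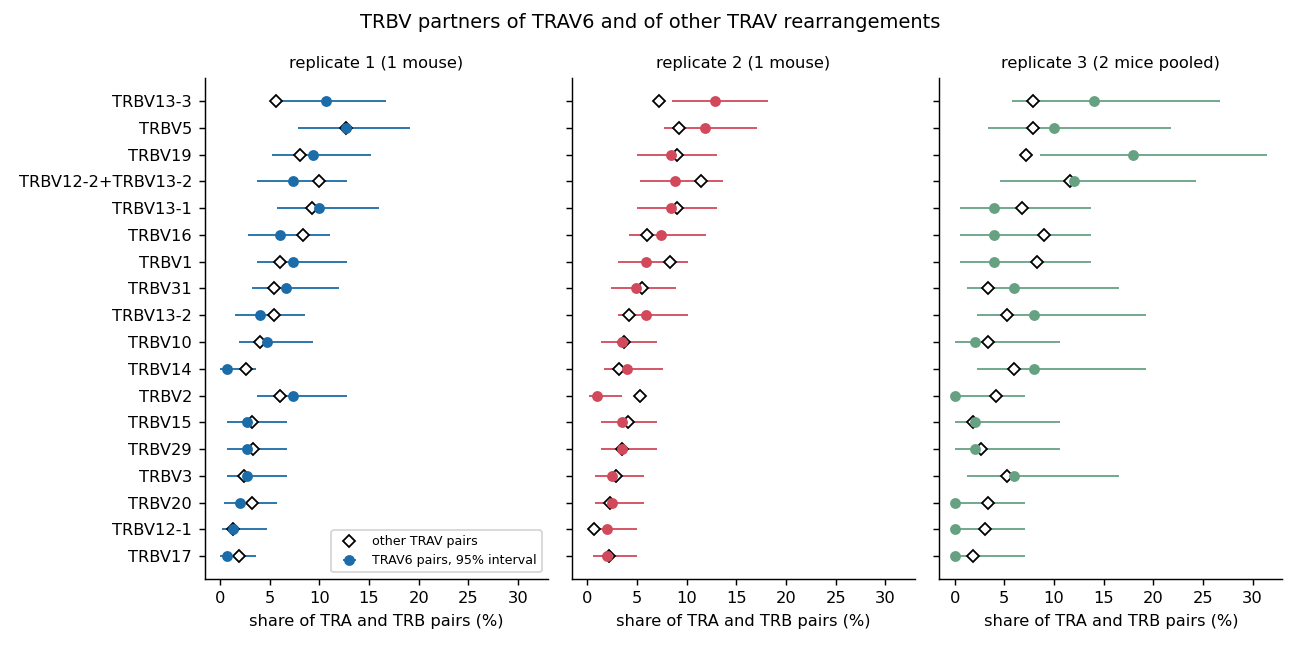
Share of TRA and TRB pairs that used each TRBV gene, in percent, for TRAV6 (filled points with exact 95% intervals) and for other TRAV families (open diamonds) in each library. Genes with at least 5 TRAV6 pairs are shown, and for TRBV13-3 TRAV6 lies above the other families as a pool in all 3 libraries.

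The V gene sets the first residues of the CDR3. Rearrangements that began with cysteine, alanine and leucine made up 78.4% ± 2.86 of TRAV6 (SD, n = 3 libraries) and 12.1% ± 0.838 of other families. Those that began with cysteine, valine and leucine made up 11.4% ± 0.638 and 0.0320% ± 0.0554. In GRCm38 this start is encoded by TRAV6-1, TRAV6-2 and TRAV6D-5, and no TRAV6 contig counted here was named TRAV6D-5. Between V and J, 3.0 bases at the median matched neither the end of any GRCm38 TRAV6 copy nor the TRAJ segment, and 53 of 519 rearrangements had none. The end matched need not be that of the copy named, so the count against the named copy can be higher.

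CDR3 length did not move one way. TRAV6 had a mean of 13.5, 13.7 and 13.7 residues in replicates 1, 2 and 3, against 13.6 in other families in each library, a difference of 0.0412 ± 0.142 residues (exact sign-flip permutation p = 0.75). Net charge, counted as lysine and arginine minus aspartate and glutamate, was lower in TRAV6 in 3 of 3 libraries, at 0.404, 0.675 and 0.567 against 0.798, 0.760 and 0.704. The difference was -0.205 ± 0.165 (exact sign-flip permutation p = 0.25, the smallest that 3 libraries allow), and it was -0.111 without replicate 1. Mean Kyte-Doolittle hydropathy was higher in 3 of 3 libraries, at 0.222, 0.255 and 0.275 against 0.162, 0.142 and 0.143, a difference of 0.102 ± 0.0374 (exact p = 0.25). Without the first 3 residues the difference was 0.00801 ± 0.0440 and was above 0 in 2 of 3 libraries, a setting chosen after the data were seen. These differences are from the other families as a pool. Among 17 families, by the mean of the libraries, TRAV6 ranked 12 from the highest in net charge (0.549) and 5 in hydropathy (0.251). TRAV7, TRAV9 and TRAV5, the nearest in share, had net charges of 0.692, 0.953 and 0.823. Their hydropathy was 0.217, 0.327 and 0.0972. Among copies, TRAV6-3 had the highest net charge of those with at least 10 rearrangements (1.40 ± 0.507, SD over 15 rearrangements), and TRAV6-2 the lowest (0.407 ± 0.747, 27 rearrangements). TRAV6-2 also had the longest CDR3 of these copies, at 14.2 ± 1.14 residues, and TRAV6-1 the shortest, at 13.1 ± 1.42. In GRCm38, the end of TRAV6-3 encodes arginine after cysteine, alanine and methionine, where that of TRAV6D-3 encodes serine. TRAV6D-3 had a net charge of 0.455 ± 0.934 (SD over 11 rearrangements). Where kept, the arginine counts in the net charge, so the TRAV6-3 value is not independent of the copy name.

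**Figure D5:**
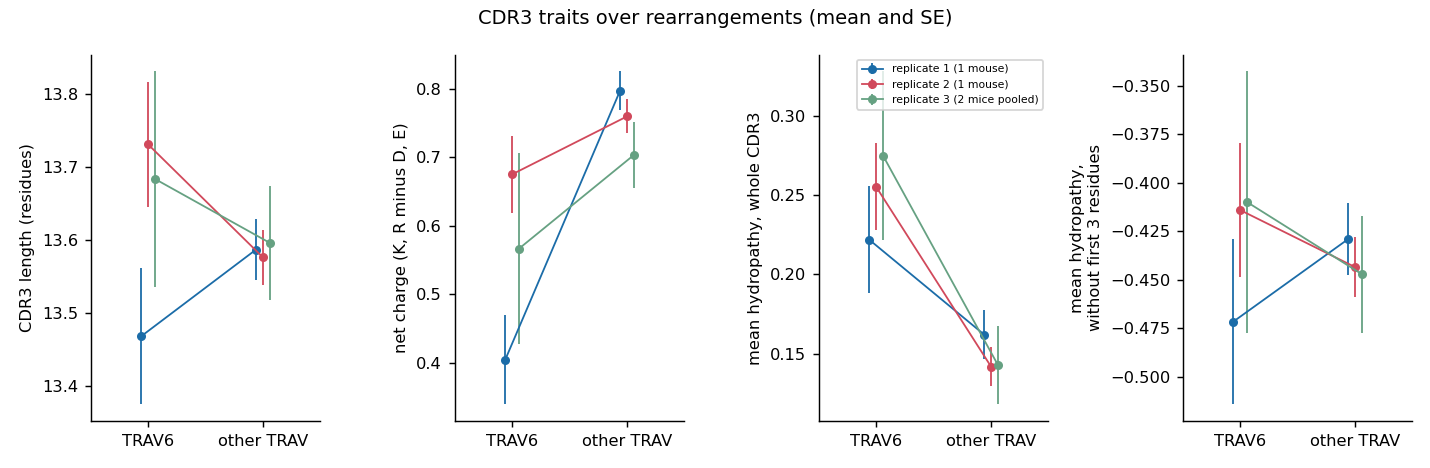
Mean CDR3 length, net charge and hydropathy of TRAV6 and other TRAV rearrangements in each library, with the standard error over rearrangements. Charge is lower and whole-CDR3 hydropathy higher for TRAV6 than for the other families as a pool in all 3 libraries. Among 17 families TRAV6 ranks 12 from the highest in charge and 5 in hydropathy. The hydropathy difference from the pool shrinks from 0.102 to 0.00801 without the first 3 residues.

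Some TRAV6 CDR3 sequences occurred in more than 1 library. Of 497 amino acid CDR3 and TRAJ combinations, 12 were in 2 libraries and 0 in all 3. No such count for other families is given here, so whether TRAV6 was shared more or less than they were was not tested. At the nucleotide level 5 were shared, of which 3 were in more than 1 cell of a library.
TRAV6D-4 or TRAV6-5 and TRAJ9: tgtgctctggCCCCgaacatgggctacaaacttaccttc
TRAV6-6 and TRAJ15: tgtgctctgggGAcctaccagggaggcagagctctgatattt
TRAV6-6 and TRAJ30: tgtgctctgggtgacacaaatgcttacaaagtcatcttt

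The TRAJ9 sequence was in 2 cells of replicate 1, under the name TRAV6D-4, and in 2 cells of replicate 2, under the name TRAV6-5. The TRAJ15 sequence was in 2 cells of replicate 1 and 1 cell of replicate 3, and the TRAJ30 sequence in 2 cells of replicate 1 and 1 cell of replicate 2. None of the 5 shared sequences was paired with the same TRB amino acid sequence in both libraries. The combinations shared at the amino acid level had a mean of 2.03 unmatched bases over 30 rearrangements, and the other 489 had 3.05.

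A second productive TRA was found in 12.8% of TRAV6 cells of replicate 1 (37 of 288, 9.21 to 17.3), in 13.2% for replicate 2 (64 of 486, 10.3 to 16.5) and in 4.55% for replicate 3 (3 of 66, 0.947 to 12.7). Cells without TRAV6 had 9.23%, 8.49% and 4.30%. A cell with 2 TRA has more chances to hold a TRAV6, so this difference is no measure of the family. In 5 cells both chains were TRAV6, and the most frequent family of the other chain was TRAV7, with 19 contigs.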

How the data were processed

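Single cells were profiled with the 10x V(D)J 5′ kit, and the authors ran Cell Ranger against mm10; the version is not given in the sources used here. The deposited contig tables give counts of UMIs and reads per contig, with V and J names and CDR3, and the clonotype tables give counts of cells. Replicate 1's table lacks the framework columns. The depth of each chain was 2.5 to 5.0 UMIs at the median, and shallow chains limit the detection of second chains. Productive TRA contigs of called cells were kept with no minimum of UMIs, and doublets were not removed. Shares have exact Clopper-Pearson 95% intervals. Expansion, TRAJ and TRBV use were tested with an exact two-sided conditional test stratified by library, over genes or families with at least 10 rearrangements or pairs with an expected number of at least 5, with Benjamini-Hochberg adjustment over the whole table and a threshold of 0.05. Traits were compared by sign flips over the 3 libraries. The expansion and TRAJ tests were tested on simulated data. TRAJ bases were taken from GRCm38, except where at least 75% of at least 20 rearrangements of other families carried another base. Python 3 libraries pandas, numpy and scipy were used.

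Copies with at least 10 rearrangements were described. Clones named were the 3 TRAV6 rearrangements with the most cells in each library, ties by UMIs, and those shared by nucleotide CDR3 and J with more than 1 cell in any library. TRAJ and TRBV partners named were the 5 most frequent and any with an adjusted p under 0.05, and the families compared were the 3 nearest in share. The members and lists were chosen with earlier results of these data known. The exact tests take rearrangements or pairs within these libraries as their units and do not measure the spread between mice. The sign-flip tests take the 3 library differences as their units. Alternatives tried were leaving out each library, chains of at least 3 UMIs, amino acid CDR3, cells with exactly 1 TRA and 1 TRB, other limits of expansion (over 2 and over 5 cells), copies joined across plain, D and N names, a minimum expected number of 2, and the joint TRBV name counted as TRBV13-2. The consensus tables were not used.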

Additional observations from a re-analysis of the deposited data

Results flagged for a closer look

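TRAV6 contigs lay outside the called cells that the comparisons used. Productive TRAV6 contigs were on 638 barcodes not called cells in replicate 1, 141 in replicate 2 and 50 in replicate 3, with medians of 1.0, 2.0 and 1.0 UMIs against 4.0, 3.0 and 2.5 in called cells. Of these barcodes, 64.9%, 61.7% and 38.0% carried a TRAV6 rearrangement that was also in a called cell of the same library. The largest TRAV6 clone of replicate 1, TRAV6N-7 with TRAJ43, was on 88 such barcodes against 21 called cells. In replicate 2, the TRAV6-2 and TRAJ45 clone was on 13 such barcodes against 38 called cells. There was no control library to set a background. Called cells also held nonproductive TRAV6 contigs, 104 in replicate 1, 151 in replicate 2 and 31 in replicate 3, with a median of 2.0 UMIs in each. The part of either in the results was not tested.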

How the results depend on the processing

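Of 108 values over 17 results and the alternatives run, 91 kept their direction and side of the threshold, or moved by less than 1 SD or, for counts, less than 1.5 times. The CDR3 trait values could not change side of the threshold, since 3 libraries allow no sign-flip permutation p under 0.25. Counted as kept were the hydropathy difference without the first 3 residues (0.00801 against 0.102) and the count of 1 TRBV call without replicate 1, where the gene called changed. With chains of at least 3 UMIs, the TRAV6 share fell outside 1 SD of the main value, to 14.3% of rearrangements and 13.6% of cells, 0 TRAV6 and TRBV pairs were called, the TRBV13-3 ratio was 1.66 (exact test, adjusted p = 0.0876), and 1 ambiguous name remained. With a minimum expected number of 2, which tests more pairs, the TRBV13-3 ratio stayed 1.61 with an adjusted p of 0.0525 by the exact test, so 0 pairs were called. Leaving out 1 library gave 0 to 1 TRAV6 and TRBV pairs called (the 1, without replicate 1, was TRBV2), TRBV13-3 ratios of 1.58 to 1.63, a CDR3 length difference of -0.0156 to 0.121 residues (negative without replicate 2) and 0 to 4 ambiguous names (0 without replicate 2). For TRAV6-6, the observed over expected ratio of expansion, 1.07 in the main setting, was 0.838 with chains of at least 3 UMIs, 0.827 with expansion over 2 cells and 0.754 over 5 cells, none past the threshold (exact test, adjusted p = 0.969 to 1.0). No TRAV gene or family was called for expansion, and no TRAV6 and TRAJ pair, in any alternative run. The cause of these changes was not tested beyond the number of pairs, cells or libraries left. No paired analysis was possible because the series has 1 condition. Replicate 3, with 60 TRAV6 rearrangements, and the 3 libraries in all limit the precision of every value.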
